A study of Mus musculus with 4 samples.

Results

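Leukocyte integrins and the vascular molecules they bind were followed through the monocytes, macrophages and other immune cells of mouse tumours. The set was chosen by name and holds 10 genes: the alpha subunits Itgam (CD11b), Itgax (CD11c), Itgal (CD11a) and Itga4 (CD49d), the beta subunits Itgb1 (CD29) and Itgb7, and the adhesion ligands Icam1 (CD54), Icam2 (CD102), Vcam1 (CD106) and Pecam1 (CD31). All 10 were present among the 12996 genes of the monocyte and macrophage count table and among the 13071 genes of the joint count table of all immune cells. On mm10 with the GENCODE vM21 annotation, 3 of the alpha subunits lie on the plus strand of chromosome 7: Itgal at 127296260 to 127335138, Itgam at 128062640 to 128118491 and Itgax at 128129547 to 128150657. Itga4 lies on chromosome 2 at 79255426 to 79333123 (plus), Itgb1 on chromosome 8 at 128685654 to 128733200 (plus) and Itgb7 on chromosome 15 at 102215995 to 102231944 (minus). Icam1 lies on chromosome 9 at 21015985 to 21028817 (plus), Vcam1 on chromosome 3 at 116109949 to 116129688 (minus), and Icam2 and Pecam1 on the minus strand of chromosome 11 at 106377656 to 106388075 and 106654217 to 106750628. In 1 library the proteins were also read as antibody tags, and the tags CD11a, CD11b, CD11c, CD31, CD102, CD106 and Integrin-b7 were taken with the set. The tags CD49d, CD29 and CD54 were added because they complete the list of proteins.

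The study profiled subcutaneous LLC (Lewis lung carcinoma) and B16 (melanoma) tumours by 10x Genomics single-cell RNA sequencing. The LLC library came from mice of the genotype F11r fl/fl LysM-Cre-, which carry a floxed F11r gene without the Cre driver. A further LLC library from C57BL/6J mice was stained with oligonucleotide-tagged antibodies (CITE-seq), and the B16 library came from C57BL/6J mice. Each library was pooled from 3 mice, so each group has 1 library and differences between tumours could not be checked on replicates, and the LLC and B16 libraries also differ in genotype. Strain, assay, library and tumour cannot be told apart. Intervals below are exact 95% intervals that cover counting error only.

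The monocyte and macrophage table held 2297 B16 cells, 10131 CITE-seq LLC cells and 8155 LLC cells, with medians of 9250, 4546 and 6530 RNA UMIs (unique molecular identifiers, each a counted molecule) per cell. The joint table held 13021 LLC cells and 6870 B16 cells. Between 5 and 18 cell barcodes were shared between pairs of libraries in the monocyte and macrophage table. The authors' subset names were used as deposited. RNA levels are given as CPM, a gene's UMIs scaled to a common total of 1000000 UMIs of the cell group. The summed level of 6 monocyte markers was between 8883 and 9593 CPM in Monocytes and between 177 and 1025 in TAM-4 and TAM-1, where the summed level of 8 macrophage markers was between 22064 and 23510. F11r itself, a ligand of the Itgal integrin, was at 46.9 CPM in B16, 91.0 in the LLC library and 70.7 in the CITE-seq LLC library. The subsets were clustered on these same RNA counts, so levels across subsets are a description and were not tested.

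Integrins are pairs of an alpha and a beta subunit that sit inactive on the leukocyte surface and open when the cell is stimulated. Itgal and Itgam pair with Itgb2 to bind the ICAM family, Itga4 pairs with Itgb1 to bind VCAM-1 or with Itgb7 to bind MAdCAM-1, and PECAM-1 binds itself at the junctions between endothelial cells. On a blood monocyte these molecules carry the cell from rolling to arrest and across the vessel wall, while on tissue macrophages several of them serve contact with matrix and with other cells.

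Itgal, Itga4 and Itgb7 shared a peak: all 3 were highest in Monocytes in all 3 libraries. The CPM of Itgal, the alpha subunit of LFA-1, in Monocytes was 366 (347 to 385) in the LLC library, 324 (303 to 345) in the CITE-seq LLC library and 487 (460 to 515) in the B16 library. The next subset in order was Immature TAM-3 at 167 in the LLC library, Immature TAM-2 at 152 in the CITE-seq LLC library and Immature TAM-1 at 83.1 in the B16 library, which placed Monocytes 2.19-fold, 2.13-fold and 5.86-fold above it. Itgal was lowest in TAM-4 at 21.6 (LLC), LLC TAM Hypoxic at 24.9 (CITE-seq LLC) and Mono/TAM Hypoxic at 22.8 (B16), a span from the highest subset of 16.9-fold, 12.98-fold and 21.4-fold. In the LLC library the 4 lowest subsets (TAM-2, Mono/TAM Hypoxic, LLC TAM Hypoxic and TAM-4, between 21.6 and 31.2) were each within counting error of the next.

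Itga4, the alpha subunit of VLA-4, had a Monocyte level of 273 (257 to 290) in the LLC library, 272 (253 to 291) in the CITE-seq LLC library and 459 (433 to 486) in the B16 library. Monocytes stood above the next subset by 2.18-fold (Immature TAM-3), 1.96-fold (Immature TAM-1) and 4.16-fold (Immature TAM-1). The lowest levels were 14.5 in Mono/TAM Hypoxic, 22.3 in LLC TAM Hypoxic and 13.1 in Mono/TAM Hypoxic, so the Monocyte level was 18.9-fold, 12.2-fold and 35.0-fold higher. Itga4 overlaps Cerkl on the opposite strand, Icam1 and Vcam1 each overlap an antisense gene, and the sources used here do not say whether the counting used strand.

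Itgb7, a partner of Itga4, had a Monocyte level of 192 (176 to 210) in B16, 243 (229 to 259) in the LLC library and 206 (190 to 223) in the CITE-seq LLC library. Its step down to the next subset was smaller: Immature TAM-2 followed at 182 and 146 in the LLC and CITE-seq LLC libraries, 1.33-fold and 1.41-fold lower, and Mono/TAM IFN followed at 84.9 in B16, 2.27-fold lower. It was lowest in TAM-4 at 16.1 and 26.1, and in B16 in TAM-1 at 13.03. Over the 24 subset-by-library groups the Pearson coefficient of log2(CPM + 10) was 0.914 for Itgal with Itga4, 0.741 for Itgal with Itgb7 and 0.497 for Itga4 with Itgb7; these points share libraries and depth.

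Because Itga4 and Itgb7 form 1 heterodimer and peaked in the same subset, the 250 bases upstream of their RefSeq start sites are shown, with CCACCC matches (a KLF-type core, searched on both strands) in capitals. RefSeq promoters on GRCm38.p6 were found for 6 of the 10 genes. The Itga4 stretch is chr2:79255176-79255425 on the plus strand and holds 1 match, 45 bases before the start site; the Itgb7 stretch is chr15:102231936-102232185 on the minus strand and holds 3, at 182, 36 and 17 bases before it. Of 32851 RefSeq promoters of that length, 28.1% hold at least 1 CCACCC. It is in 3 of the 6 matched members, Icam1 among them with 2 matches although its RNA peaked in other subsets, and a match is a description, not a bound site.
Itga4: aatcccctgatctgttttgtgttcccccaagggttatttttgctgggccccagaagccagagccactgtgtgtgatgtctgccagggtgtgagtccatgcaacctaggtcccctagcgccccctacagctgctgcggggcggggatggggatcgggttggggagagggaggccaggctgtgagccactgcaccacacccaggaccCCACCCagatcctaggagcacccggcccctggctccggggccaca
Itgb7: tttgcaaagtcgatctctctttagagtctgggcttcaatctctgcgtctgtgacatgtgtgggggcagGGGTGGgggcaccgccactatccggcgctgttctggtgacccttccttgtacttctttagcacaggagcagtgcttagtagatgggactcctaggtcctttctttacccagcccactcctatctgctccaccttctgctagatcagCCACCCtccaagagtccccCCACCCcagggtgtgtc

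The surface tags of the CITE-seq LLC library placed the same proteins in the same subset when read as a share of all tag UMIs. Monocytes held 73.4 CD11a, 5.36 CD49d and 7.17 Integrin-b7 UMIs per 1000 tag UMIs, each the highest of 10 subsets. The lowest values were 11.5 for CD11a in TAM-4, 0.806 for CD49d in LLC TAM Hypoxic and 0.439 for Integrin-b7 in TAM-3. In LLC TAM Hypoxic the highest of the 9 isotype control tags (IgG1-Rat-l, a measure of unspecific binding) was at 0.826, with Integrin-b7 at 0.466. The next highest control, IgG1-Rat-k, was at 0.426. Low levels of CD49d and Integrin-b7 there were thus below the highest control and above the others. Which control matches each antibody is not known here, so whether these levels exceed unspecific binding was not tested. Monocytes also had the smallest tag total, a median of 263 tag UMIs per cell against 767 in TAM-4 and 979.5 in Immature TAM-3. On the scale of tag UMIs per cell, Integrin-b7 was again highest in Monocytes at 2.44, whereas CD11a and CD49d were highest in Immature TAM-3 at 39.8 and 2.37, with Monocytes at 24.9 and 1.82.

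**Figure D1:**
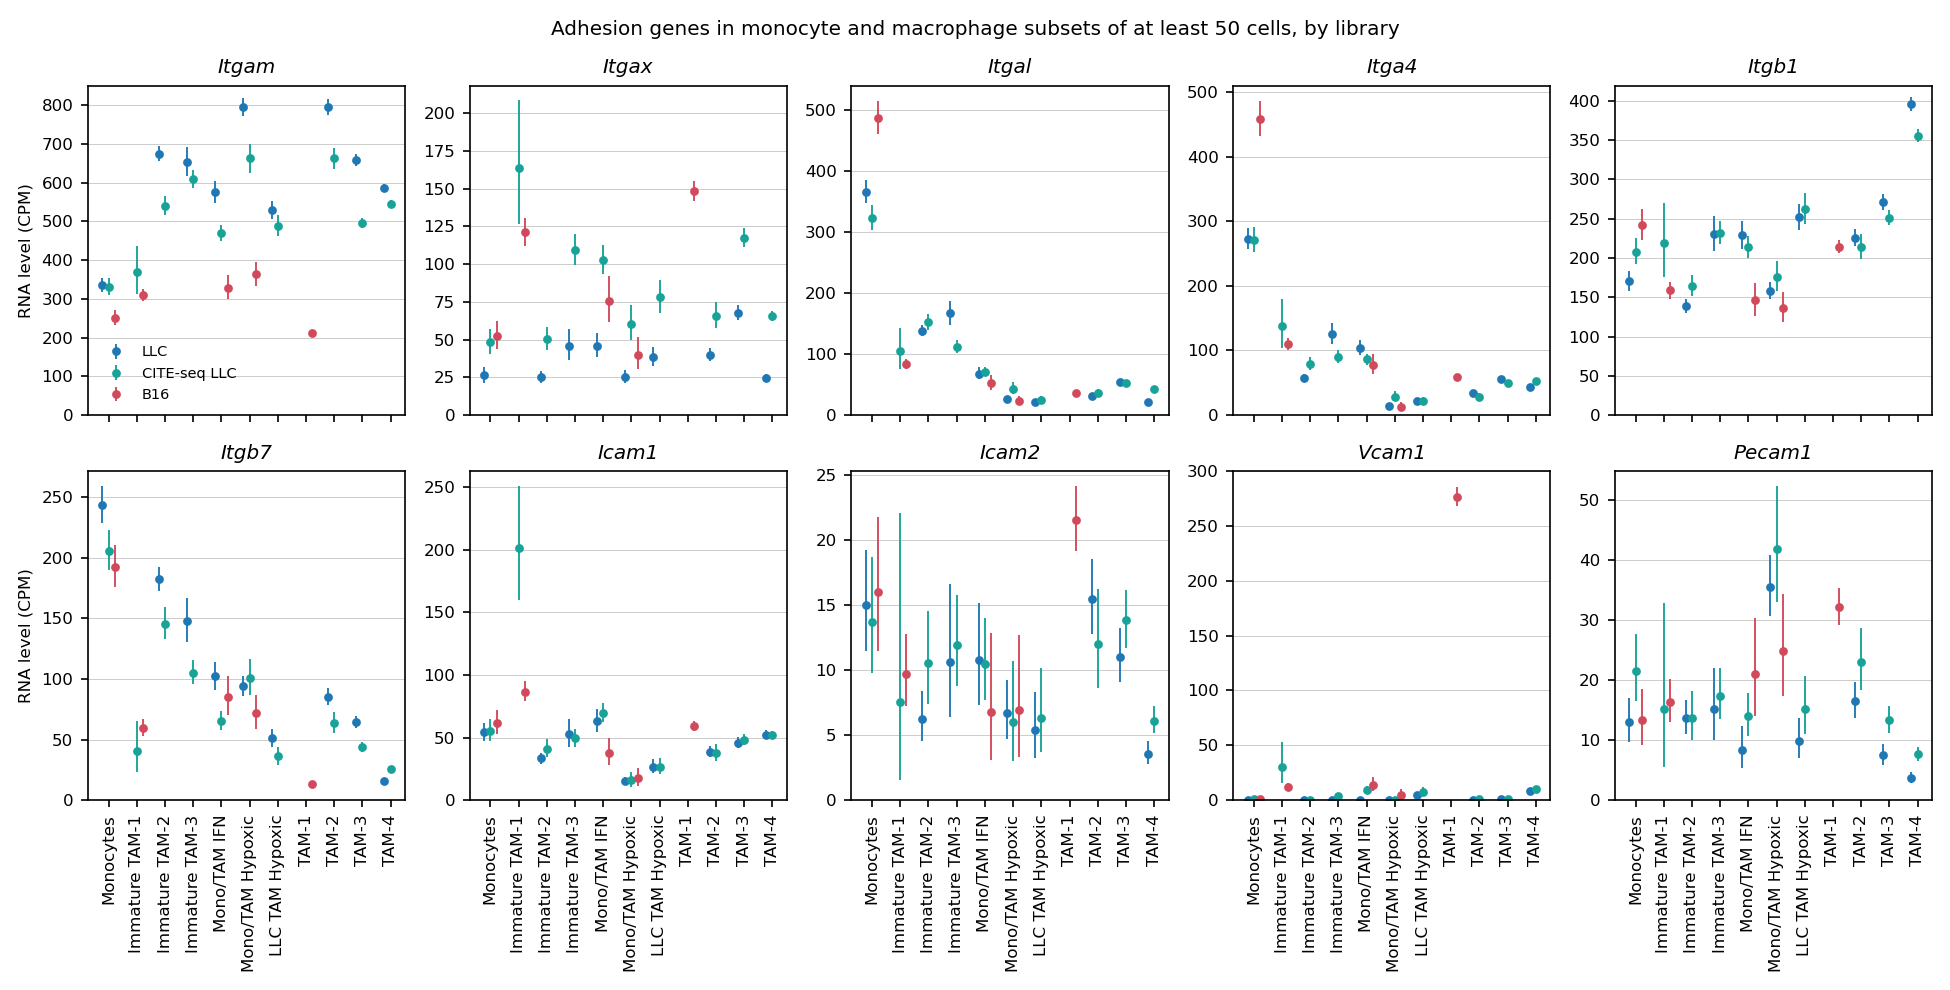
RNA level of each of the 10 genes (vertical axis, CPM) in monocyte and macrophage subsets of at least 50 cells (horizontal axis), with 1 point per library and exact 95% Poisson intervals as bars. Itgal, Itga4 and Itgb7 peak in Monocytes in all 3 libraries, Vcam1 is at 277 in B16 TAM-1 and at or below 30.2 in all other points, and Itgam is lowest in Monocytes in both LLC libraries.

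Itgam, the alpha subunit of Mac-1 (CR3) and the usual marker of myeloid cells, had the opposite order in LLC tumours. Its level was 794 (771 to 818) in Mono/TAM Hypoxic and 794 in TAM-2 in the LLC library, with an interval of the ratio of 0.962 to 1.04, and 662 in both subsets in the CITE-seq LLC library. Monocytes were lowest at 336 (318 to 354) and 331 (311 to 353). In B16 the order began with Mono/TAM Hypoxic at 363 (333 to 396) and Mono/TAM IFN at 328, which did not differ beyond counting error, and ended with TAM-1 at 211 (204 to 219). The range over subsets was narrow: 1.72-fold in B16, 2.37-fold in the LLC library and 2.0-fold in the CITE-seq LLC library. Itgam overlaps the gene Gm49368 on the same strand, so reads of the shared stretch could be assigned to either.

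The Itgam promoter is shown because the gene is the usual myeloid marker. It lies at chr7:128062390-128062639 on the plus strand, and capitals mark GAGGAA (a PU.1-type core, searched on both strands), which occurs 84 bases before the start site and, as its reverse complement, 15 bases before it. At least 1 GAGGAA is present in 23.3% of RefSeq promoters of that length, among them 2 of the 6 matched members.
Itgam: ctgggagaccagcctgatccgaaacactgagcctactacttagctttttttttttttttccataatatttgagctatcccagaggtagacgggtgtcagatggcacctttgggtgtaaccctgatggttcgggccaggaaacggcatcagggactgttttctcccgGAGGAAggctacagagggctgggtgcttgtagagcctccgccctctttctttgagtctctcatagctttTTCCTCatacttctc

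Itgax, the alpha subunit that marks dendritic cells and many tissue macrophages, differed from its neighbour Itgam on chromosome 7 in where it peaked. The Itgax level was highest in TAM-3 at 67.8 (62.8 to 73.0) in the LLC library, in Immature TAM-1 at 164 (126 to 209) in the CITE-seq LLC library and in TAM-1 at 148 (142 to 155) in the B16 library. TAM-3 followed Immature TAM-1 in the CITE-seq LLC library at 117, and Immature TAM-1 followed TAM-1 in B16 at 121. The lowest levels were 24.6 in TAM-4 (LLC), 48.3 in Monocytes (CITE-seq LLC) and 40.1 in Mono/TAM Hypoxic (B16). In the LLC library Monocytes (26.3), Mono/TAM Hypoxic (25.3), Immature TAM-2 (24.9) and TAM-4 were within counting error of one another in order. Over the 24 groups their Pearson coefficient was −0.41.

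The tags of both proteins led in other subsets than their RNA did in that library. CD11c was highest in TAM-3 at 20.9 UMIs per 1000 tag UMIs, followed by Immature TAM-1 at 18.1, and lowest in Immature TAM-2 at 5.19, whereas Itgax RNA was 1.39-fold (1.07 to 1.79) higher in Immature TAM-1 than in TAM-3. Per cell, CD11c was highest in Immature TAM-3 at 15.4 tag UMIs. CD11b took up more of the tag pool than any other member, 336 of every 1000 tag UMIs over all cells, and was highest in TAM-4 at 363 and lowest in Immature TAM-1 at 255. TAM-4 was thus the subset with the highest CD11b share at an Itgam RNA level of 545, below TAM-2, Mono/TAM Hypoxic and Immature TAM-3.

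Itgb1, the shared beta subunit of the VLA integrins that bind fibronectin, collagen, laminin and VCAM-1, was highest in TAM-4. Its RNA level there was 396 (387 to 405) in the LLC library and 356 (348 to 364) in the CITE-seq LLC library, 1.46-fold above TAM-3 and 1.36-fold above LLC TAM Hypoxic. It was lowest in Immature TAM-2 at 139 and 165. In B16, where TAM-4 holds 2 cells, Itgb1 was highest in Monocytes at 242 (223 to 262), followed by TAM-1 at 215, and lowest in Mono/TAM Hypoxic at 137. The order of the CD29 tag depended on its scale. As a share it lay between 11.9 in Immature TAM-1 and 18.0 in Monocytes per 1000 tag UMIs, with TAM-4 at 15.2. Per cell it was highest in TAM-4 at 15.3 tag UMIs and lowest in Immature TAM-2 at 5.65, the same ends as the RNA in that library. Itgb1 and Itga4, whose proteins pair as VLA-4, had a Pearson coefficient of 0.02 over the 24 groups.

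Icam1, the endothelial and antigen-presenting-cell ligand of LFA-1 and Mac-1, was highest in Immature TAM-1 where that subset was measured. Its level there was 202 (160 to 251) in the CITE-seq LLC library, 2.89-fold (2.23 to 3.71) above the next subset, Mono/TAM IFN at 69.7. In B16 it was 86.7 (78.9 to 95.1) against 61.8 in Monocytes, a ratio of 1.40. The LLC library held 25 Immature TAM-1 cells, with a level of 220 (159 to 298), and among its subsets of at least 50 cells the order began with Mono/TAM IFN at 63.1 and Monocytes at 54.3, which did not differ beyond counting error. Mono/TAM Hypoxic was lowest in all 3 libraries, at 15.0, 15.8 and 17.3. The CD54 tag was also highest in Immature TAM-1 at 78.7 and lowest in Mono/TAM Hypoxic at 32.4 per 1000 tag UMIs; per cell it was again highest in Immature TAM-1, at 53.2, and lowest in Monocytes, at 11.5.

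The Icam1 promoter carries recognition cores of both inflammatory and interferon signalling and is shown for that reason, as letters and not as bound sites. It lies at chr9:21015690-21015939 on the plus strand. Capitals mark GGAAATTCC (NF-kB-type) 153 bases before the start site, present in 0.286% of the RefSeq promoters of that length, and a match to TTCNNNGAA (GAS-type) 42 bases before it, present in 7.02%. Both motifs were searched on both strands, and Icam1 was the single member of the 6 matched that held either.
Icam1: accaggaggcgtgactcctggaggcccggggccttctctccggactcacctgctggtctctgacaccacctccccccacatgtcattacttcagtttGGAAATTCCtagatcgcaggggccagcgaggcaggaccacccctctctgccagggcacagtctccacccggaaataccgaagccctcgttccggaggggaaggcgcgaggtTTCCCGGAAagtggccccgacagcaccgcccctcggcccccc

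Icam2, a constitutive LFA-1 ligand of endothelium, platelets and resting lymphocytes, was sparse in monocytes and macrophages. The level was highest in TAM-2 at 15.5 (12.8 to 18.6) in the LLC library, in TAM-3 at 13.8 (11.7 to 16.2) in the CITE-seq LLC library and in TAM-1 at 21.6 (19.2 to 24.2) in the B16 library. In each library Monocytes followed within counting error, at 15.0, 13.7 and 16.03. All 8 neighbouring pairs in the LLC order and all 9 in the CITE-seq LLC order were within counting error of each other, so the order was not resolved at this depth beyond its ends. The CD102 tag had a clearer order, from 15.5 per 1000 tag UMIs in Monocytes and 12.6 in Immature TAM-2 down to 4.69 in TAM-4; per cell it was highest in Immature TAM-3 at 9.92, with Monocytes at 5.27.

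Vcam1, known as the cytokine-induced endothelial ligand of VLA-4 and also made by some tissue macrophages, was concentrated in TAM-1 among the B16 subsets. TAM-1 held 941 B16 cells with 3762 Vcam1 UMIs, a level of 277 (268 to 286). The other B16 subsets were Mono/TAM IFN at 13.5, Immature TAM-1 at 11.98, Mono/TAM Hypoxic at 4.83 and Monocytes at 1.17. TAM-1 was thus 20.5-fold (12.9 to 34.6) above the next subset.

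TAM-1 was rare in LLC tumours, with 2 cells in the LLC library and 4 in the CITE-seq LLC library. The 2 LLC cells held 1 and 15 Vcam1 UMIs among 16179 and 9384 RNA UMIs. The 4 CITE-seq LLC cells held 11, 2, 1 and 0 Vcam1 UMIs among 10608, 7605, 8674 and 10915 RNA UMIs. TAM-1 cells with Vcam1 RNA were thus not confined to B16, and those of LLC were too few to rank. The 4 CITE-seq LLC cells held 6, 5, 10 and 0 CD106 tag UMIs, which together is a CD106 level of 7.62 (4.72 to 11.7) per 1000 tag UMIs. Over the 10 subsets of at least 50 cells in that library the CD106 level was between 0.424 in Mono/TAM Hypoxic and 1.06 in Mono/TAM IFN, beside a sum of 1.15 to 2.02 for the 9 isotype control tags in all but Immature TAM-3. There the isotype sum was 7.82, and 1.26 without its 4 cells of more than 5000 tag UMIs.

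In the LLC subsets of at least 50 cells, Vcam1 RNA was low. TAM-4 was highest in the LLC library at 7.85 (6.64 to 9.23) and LLC TAM Hypoxic followed at 4.56, while Monocytes, Mono/TAM IFN, Mono/TAM Hypoxic and Immature TAM-3 were at 0. The Monocyte value of 0 allows a level of up to 0.737 at 3 UMIs. In the CITE-seq LLC library Immature TAM-1 was highest at 30.2 (15.6 to 52.8) on 12 UMIs from 76 cells, and TAM-4 followed at 9.96. Endothelial cells are a known source of Vcam1, and 5 of the 12 listed endothelial markers (Cdh5, Kdr, Flt1, Egfl7 and Vwf) were in the table, and the endothelial list summed to 19.7 in B16 TAM-1 against 90.9 in B16 Mono/TAM IFN and 18.0 in B16 Monocytes. In the CITE-seq LLC library the endothelial list summed to 83.1 in Immature TAM-1, the highest of its subsets, and its part in the Vcam1 value there was not tested.

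The annotation that the authors made on the B16 library alone divided TAM-1 further. Of the 941 cells, 617 were labelled Mac-1, 306 Mac-2 and 16 Immature Mac. In that B16 annotation the Vcam1 level was 292 in Mac-1, 193 in Mac-Prolif, 171 in Mac-2, 12.1 in Immature Mac and 2.68 in Mac-Lyve1.

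Pecam1, the junctional molecule that leukocytes engage when they cross endothelium, was highest in Mono/TAM Hypoxic in both LLC libraries. The level was 35.5 (30.7 to 40.8) in the LLC library, 2.14-fold above TAM-2 at 16.5, and 41.9 (33.1 to 52.4) in the CITE-seq LLC library, 1.82-fold above TAM-2 at 23.1. TAM-4 was lowest at 3.66 and 7.68. In B16 TAM-1 was highest at 32.2 (29.2 to 35.3), Mono/TAM Hypoxic followed at 24.9 within counting error, and Monocytes were lowest at 13.3. As a share, the CD31 tag had the same ends, 21.0 per 1000 tag UMIs in Mono/TAM Hypoxic and 6.76 in TAM-4, and LLC TAM Hypoxic was next to the top at 17.3. Per cell neither end held: CD31 was highest in LLC TAM Hypoxic at 13.4 tag UMIs and lowest in Immature TAM-2 at 3.38.

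Platelet signals were high in the subset with the highest CD31 and Pecam1 of the LLC libraries, and their part in those levels was not tested. Of 8 platelet markers, Ppbp, Pf4 and Gng11 were in the table, and the platelet list summed to 1238, 3168 and 2024 CPM in Mono/TAM Hypoxic of B16, LLC and CITE-seq LLC against 23.1, 74.4 and 57.2 in Monocytes. Pf4 is also made by some macrophages, and the platelet list reached 5135 in LLC TAM Hypoxic, where the LLC Pecam1 level was 9.92. The tag of CD41, the platelet integrin Itga2b, was at 9.41 per 1000 tag UMIs in LLC TAM Hypoxic, 6.98 in Mono/TAM Hypoxic and 1.23 in Monocytes. TAM-4, with the lowest CD31 share, had a CD41 level of 4.22. B16 TAM-1, with the highest Pecam1 level of that library, had a platelet sum of 555 against 1238 in Mono/TAM Hypoxic. Both sums were mostly Pf4, at 522 in B16 TAM-1 and 1135 in B16 Mono/TAM Hypoxic, whereas Ppbp was at 0.442 and 96.7. Among cells without a CD41 UMI, which were 35.4% of Mono/TAM Hypoxic cells, the CD31 level was 14.1 in Mono/TAM Hypoxic, 11.8 in TAM-2, 11.3 in LLC TAM Hypoxic, 10.7 in Monocytes and 4.51 in TAM-4. The Pecam1 RNA level of the Mono/TAM Hypoxic cells without CD41 was 31.9, against 41.9 for all cells of that subset. This selection was chosen after seeing the data.

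In the CITE-seq LLC library each tag could be set beside the RNA of its gene. Over the 10 subsets the Spearman coefficient between tag level and RNA level was above 0 for 9 of 10 pairs and above 0.5 for 8 of 10. It was 0.964 for CD11c with Itgax, 0.879 for Integrin-b7 with Itgb7, 0.770 for CD49d with Itga4, 0.758 for CD106 with Vcam1, 0.733 for CD11a with Itgal, 0.697 for CD31 with Pecam1, 0.624 for CD54 with Icam1 and 0.503 for CD11b with Itgam. The low pairs were CD102 with Icam2 at 0.309 and CD29 with Itgb1 at −0.05. The CD106 coefficient ranks levels of 0.424 to 1.06, all below the sum of the 9 isotype control tags. Beside the single control IgG1-Rat-l, CD106 was lower in Mono/TAM Hypoxic (0.424 against 0.593) and higher in Immature TAM-1 (1.01 against 0.758). These subsets share 1 library and its depth, and tag shares sum to a whole, so a high CD11b share lowers the others. On the scale of tag UMIs per cell the coefficient was 0.697 for CD29, 0.442 for CD31, 0.394 for CD11b and 0.0424 for CD102, and 7 of 10 pairs were above 0.5.

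**Figure D2:**
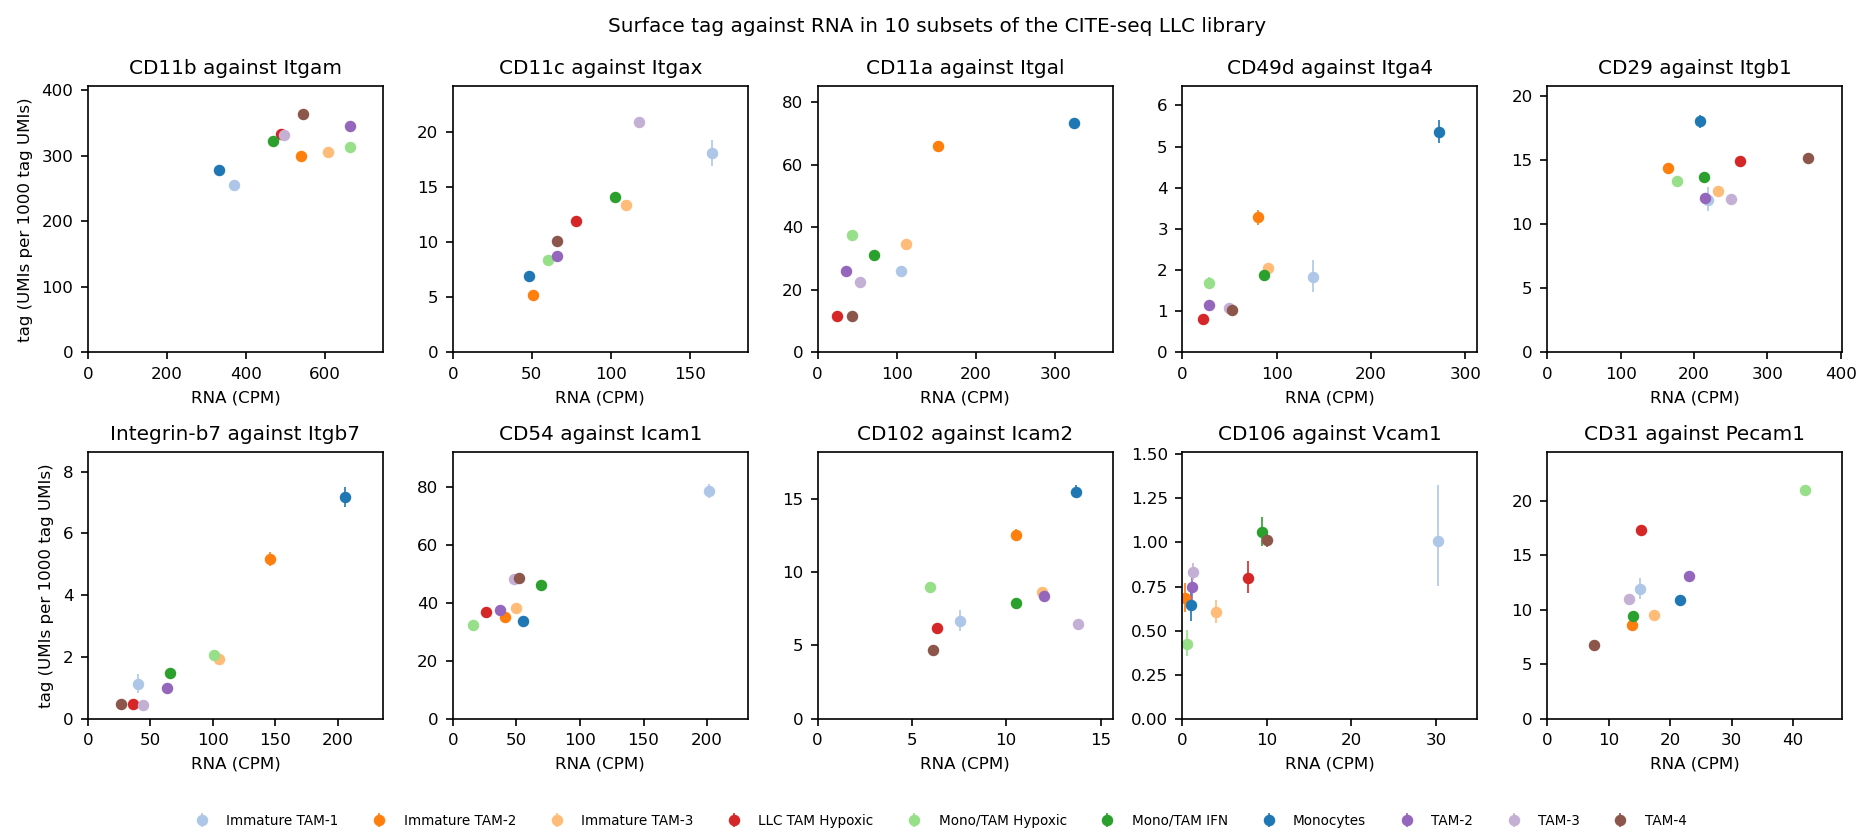
Surface tag level (vertical axis, tag UMIs per 1000 tag UMIs) against RNA level of its gene (horizontal axis, CPM) in the 10 CITE-seq LLC subsets of at least 50 cells, 1 point per subset with exact 95% intervals on the tag level. CD11c with Itgax and Integrin-b7 with Itgb7 lie near a line, the CD29 share spans 1.51-fold over a 2.16-fold range of Itgb1, and CD31 is highest at 21.0 in Mono/TAM Hypoxic.

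Within a subset, cells in which a gene's RNA was seen carried more of some tags than cells in which it was not. The ratio of tag level between cells with and without a UMI of the gene was above 1 in all 10 subsets for CD11c (median 1.90, range 1.44 to 3.48), in all 10 for CD11a (median 1.30) and in all 9 that could be measured for Integrin-b7 (median 1.26) and for CD31 (median 2.74, range 1.73 to 4.55). It was above 1 in all 7 measured subsets for CD102 (median 1.12) and in 7 of 10 for CD49d (median 1.14, down to 0.691). For CD106 it was 3.23 and 4.45 in the 2 subsets with enough cells with a Vcam1 UMI. For CD29 and CD54 the median was 1.01, with 6 of 10 subsets above 1. For CD11b it was 1.06, with 8 of 8 above 1. Deeper cells are more likely to show a UMI, and the part of depth in these ratios was not tested.

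Between tumours, the set was compared over all monocytes and macrophages and then within the subsets held by at least 50 cells on both sides. A gene was counted as higher or lower when its ratio reached 1.5-fold with at least 20 UMIs over both sides, which is a rule of size and not a test. Of the 10 genes, 5 were higher in B16 than in the LLC library and 2 were lower, where 11.9% of the 11196 genes measured were higher and 11.8% lower. With the CITE-seq LLC library on the other side 4 were higher and 1 lower, where 11% of all genes were higher and 9.93% lower. The 2 comparisons share the B16 library.

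Vcam1 had the widest gap. Its pooled level was 156 in B16, 3.22 in the LLC library and 6.20 in the CITE-seq LLC library, ratios of 48.4 (42.0 to 56.1) and 25.1 (22.5 to 28.1). TAM-1 cells were 941 of 2297 in B16, and without them in any library the ratios were 2.90 and 1.44. This computation was chosen after seeing the data. Within Mono/TAM IFN the B16 level was 1.44-fold (0.781 to 2.57) that of the CITE-seq LLC library, and within Immature TAM-1 it was 0.396-fold (0.212 to 0.807), on 63 and 12 UMIs.

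Itgam was the member that was lower in B16 in every matched subset. Its pooled level was 259 in B16, 633 in the LLC library and 529 in the CITE-seq LLC library, ratios of 0.409 (0.398 to 0.420) and 0.488 (0.475 to 0.502). Against the LLC library the ratio was 0.457 in Mono/TAM Hypoxic, 0.571 in Mono/TAM IFN and 0.747 in Monocytes. Against the CITE-seq LLC library it was 0.549, 0.700 and 0.758 in the same subsets and 0.838 (0.707 to 0.999) in Immature TAM-1. Of these 7 ratios, 3 passed 1.5-fold.

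Itgax had a pooled level of 121 in B16, 36.5 in the LLC library and 81.1 in the CITE-seq LLC library. Within subsets its direction depended on which LLC library stood beside B16: the ratio was 1.58, 1.65 and 1.99 in Mono/TAM Hypoxic, Mono/TAM IFN and Monocytes against the LLC library, and 0.663, 0.738 and 1.08 in the same subsets against the CITE-seq LLC library.

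Itga4 and Itgal had pooled levels of 109 and 93.1 in B16, 62.7 and 71.3 in the LLC library and 67.0 and 72.1 in the CITE-seq LLC library. In Monocytes the Itga4 ratio was 1.68 (1.55 to 1.83) against the LLC library and 1.69 (1.54 to 1.85) against the CITE-seq LLC library, and the Itgal ratio was 1.33 (1.23 to 1.44) and 1.505 (1.38 to 1.64). In Mono/TAM Hypoxic the ratios were 0.907 and 0.464 for Itga4 and 0.846 and 0.524 for Itgal. Without Monocytes in any library, the pooled ratio of Itga4 went from 1.74 to 1.44 against the LLC library and was 1.23 against the CITE-seq LLC library. The pooled Itgal ratio was then 0.945 and 0.816, below 1 where it had been above. That computation too was chosen after seeing the data.

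The makeup of the Monocyte subset moved with this difference. Of the 396 B16 Monocytes, 277 were labelled Mono-NC and 114 Mono in the B16 annotation. The summed level of 6 non-classical monocyte markers in Monocytes was 1380 in B16, 702 in the LLC library and 761 in the CITE-seq LLC library. In the B16 annotation the Itgal level was 573 in Mono-NC and 195 in Mono, the Itga4 level was 502 and 272, and the Itgax level was 86.5 and 25.9, whereas Itgb7 was at 165 and 189. The part of this makeup in the difference between tumours was not tested.

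The remaining members gave smaller or mixed ratios. Itgb7 had pooled levels of 49.8, 83.6 and 59.7 in B16, LLC and CITE-seq LLC and ratios of 0.765 to 0.832 in the 3 subsets shared with the LLC library. Against the CITE-seq LLC library its ratio was above 1 in 2 of 4 subsets, from 0.714 in Mono/TAM Hypoxic to 1.48 in Immature TAM-1. Itgb1 had pooled levels of 197, 267 and 277, with a ratio against the LLC library of 1.42 in Monocytes and 0.640 in Mono/TAM IFN. Icam1 had pooled levels of 61.2, 43.8 and 49.9; in Mono/TAM IFN its ratio was 0.595 against the LLC library and 0.539 against the CITE-seq LLC library, and in Immature TAM-1 0.430 (0.339 to 0.553) against the latter. Pecam1 had pooled levels of 25.8, 11.4 and 13.4, with ratios of 2.51 and 1.51 in Mono/TAM IFN and 0.701 and 0.594 in Mono/TAM Hypoxic. Icam2 had pooled levels of 16.5, 8.26 and 9.39, and its within-subset ratios rest on 9 to 61 UMIs a side, except for Immature TAM-1, where the CITE-seq LLC library held 3.

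Counted over subsets, the shares of members past 1.5-fold were set beside those of all genes. Over the 3 shared subsets, 5 of 27 gene-subset pairs (18.5%) were higher in B16 and 5 (18.5%) lower, against 10.3% and 16.1% of all genes. Over the 4 subsets shared with the CITE-seq LLC library, 3 of 38 pairs (7.89%) were higher and 10 (26.3%) lower, against 11.5% and 15.6% of all genes. Pairs of one gene share its library and are not independent.

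**Figure D3:**
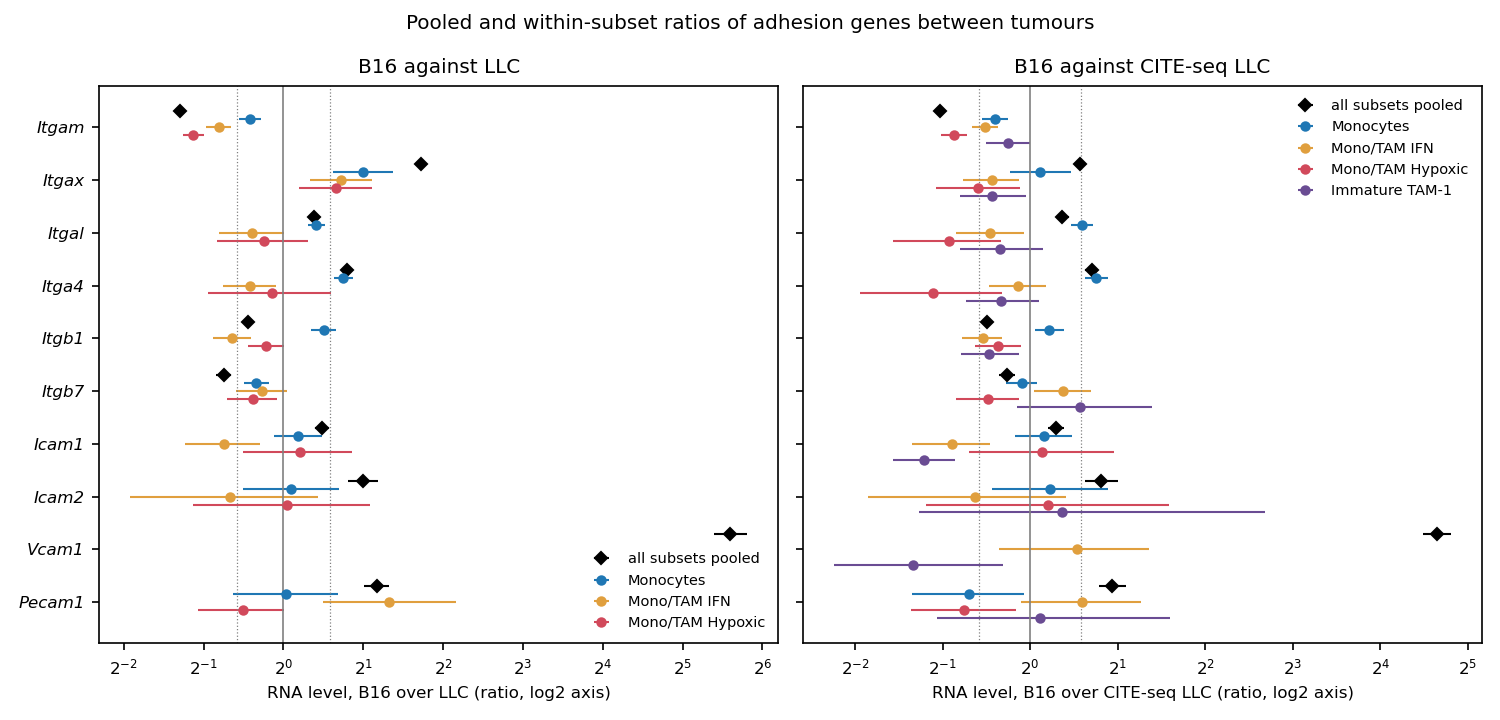
Ratio of RNA level between B16 and each LLC library (horizontal axis, log2 scale) for each gene, over all subsets pooled (diamonds) and within each shared subset (circles), with exact 95% intervals; dotted lines mark 1.5-fold and Vcam1 has no value in the subsets shared with the LLC library under the minimum of 20 UMIs. Itgam lies below 1 in every matched subset, Itga4 lies above 1 in Monocytes and below 1 in the other subsets, and the pooled Vcam1 ratio of 48.4 lies beyond all within-subset values shown.

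The LLC libraries could be set against each other in 9 subsets, with strain and assay differing between them. Pooled over subsets, 2 members were higher in the CITE-seq LLC library and 0 lower, where 3.03% of all genes were higher and 2.81% lower: Itgax at 81.1 against 36.5, a ratio of 2.22 (2.11 to 2.34), and Vcam1 at 6.20 against 3.22, a ratio of 1.93 (1.62 to 2.31). Itgax was higher in all 9 subsets, by 1.65-fold in TAM-2 to 2.68-fold in TAM-4. Pecam1 was above 1 in all 9, from 1.003 to 2.10, and past 1.5-fold in 5. Itgam was below 1 in all 9, from 0.753 to 0.986. Over the 9 subsets 22 of 85 gene-subset pairs (25.9%) were higher, against 5.84% of all genes, and 1 (1.18%) was lower, against 5.59%.

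Over all immune cells of the LLC and B16 libraries, different clusters led for different adhesion genes. The joint table uses subset names of its own, in which B16 cells called TAM-3 there have the high Vcam1 level and LLC cells called TAM-1 there have the high Itgb1 level. Migratory dendritic cells (migDC), which leave tissue for lymph nodes, had the highest Itga4 level in both libraries, 728 (660 to 802) in LLC and 646 (605 to 689) in B16, 3.15-fold and 1.46-fold above Monocytes. They also had the highest Icam1 level, 160 (129 to 196) and 171 (151 to 194). By contrast their Itgal level was 17.6 and 28.2, their level of the beta subunit Itgb2 was 91.4 and 46.1, and Icam2 was at 0 in LLC and 1.38 in B16.

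Conventional dendritic cells of the cDC2 type had the highest Itgax level, 165 (150 to 182) in LLC and 166 (149 to 186) in B16. The next cluster was Imm TAM-4 at 55.7 in LLC but TAM-3 at 144 in B16, so the gap was 2.97-fold in LLC and 1.16-fold in B16. Monocytes had the highest Itgal level, 331 and 477, which in B16 was within counting error of Neutrophil-1. Itgal and Itga4 were also higher in Neutrophil-1 than in Neutrophil-2, given here with LLC before B16. Itgal was at 231 and 418 in Neutrophil-1 and at 50.6 and 38.4 in Neutrophil-2. Itga4 was at 103 and 345 in Neutrophil-1 and at 18.1 and 12.8 in Neutrophil-2. The B16 Neutrophil-2 cluster held 85 cells with 156243 RNA UMIs in all, so its low levels rest on few UMIs.

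Lymphoid and plasmacytoid clusters held the highest levels of Icam2 and Pecam1, and in B16 of Itgb7. Itgb7, whose pairing with Itga4 directs lymphocytes to mucosa, was highest in Naive T cells in LLC at 261 (217 to 311), within counting error of Monocytes at 232. In B16 it was highest in Tregs-1 at 431, with Naive T cells at 232. Icam2 was highest in B cells at 67.6 (40.0 to 107) and 74.2 (55.9 to 96.6), and Naive T cells followed at 31.3 and 31.1. Pecam1 was highest in B cells at 97.6 and NK cells at 89.1 in LLC, and in plasmacytoid dendritic cells at 87.8 and B cells at 83.7 in B16, pairs that did not differ beyond counting error. Itgb1 was highest in NK cells in B16 at 451, with LLC NK cells at 288. Of the 10 genes, 5 peaked in the same cluster in both libraries: Itgax, Itgal, Itga4, Icam1 and Icam2. Each library was ranked over its own clusters of at least 50 cells, 16 in LLC and 19 in B16. The B16 peaks of Itgb7 (Tregs-1), Pecam1 (plasmacytoid dendritic cells) and Vcam1 (TAM-3) lay in clusters of 41, 21 and 7 LLC cells. The LLC peaks of Itgam (Imm TAM-1) and Itgb1 (TAM-1) lay in clusters of 31 and 6 B16 cells, so these genes could not match.

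Vcam1 reached 249 in TAM-3 of B16, and Tregs-2, a cluster that also carried macrophage markers, followed at 33.8. Among LLC clusters of at least 50 cells its highest level was 11.97 in Prolif TAM. The TAM-3 cluster held 7 LLC cells and was not ranked there. Itgam was highest in Imm TAM-1 of LLC at 750 and in Imm TAM-4 of B16 at 496. In lymphoid clusters Itgam was at 43.8 and 8.92 in Naive T cells and at 169 and 39.1 in B cells, LLC before B16. The macrophage list summed there to 536 and 392 in Naive T cells and to 1622 and 1231 in B cells. Whether the Itgam UMIs in these clusters come from the cells themselves was not tested, so the levels are not read as expression.

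**Figure D4:**
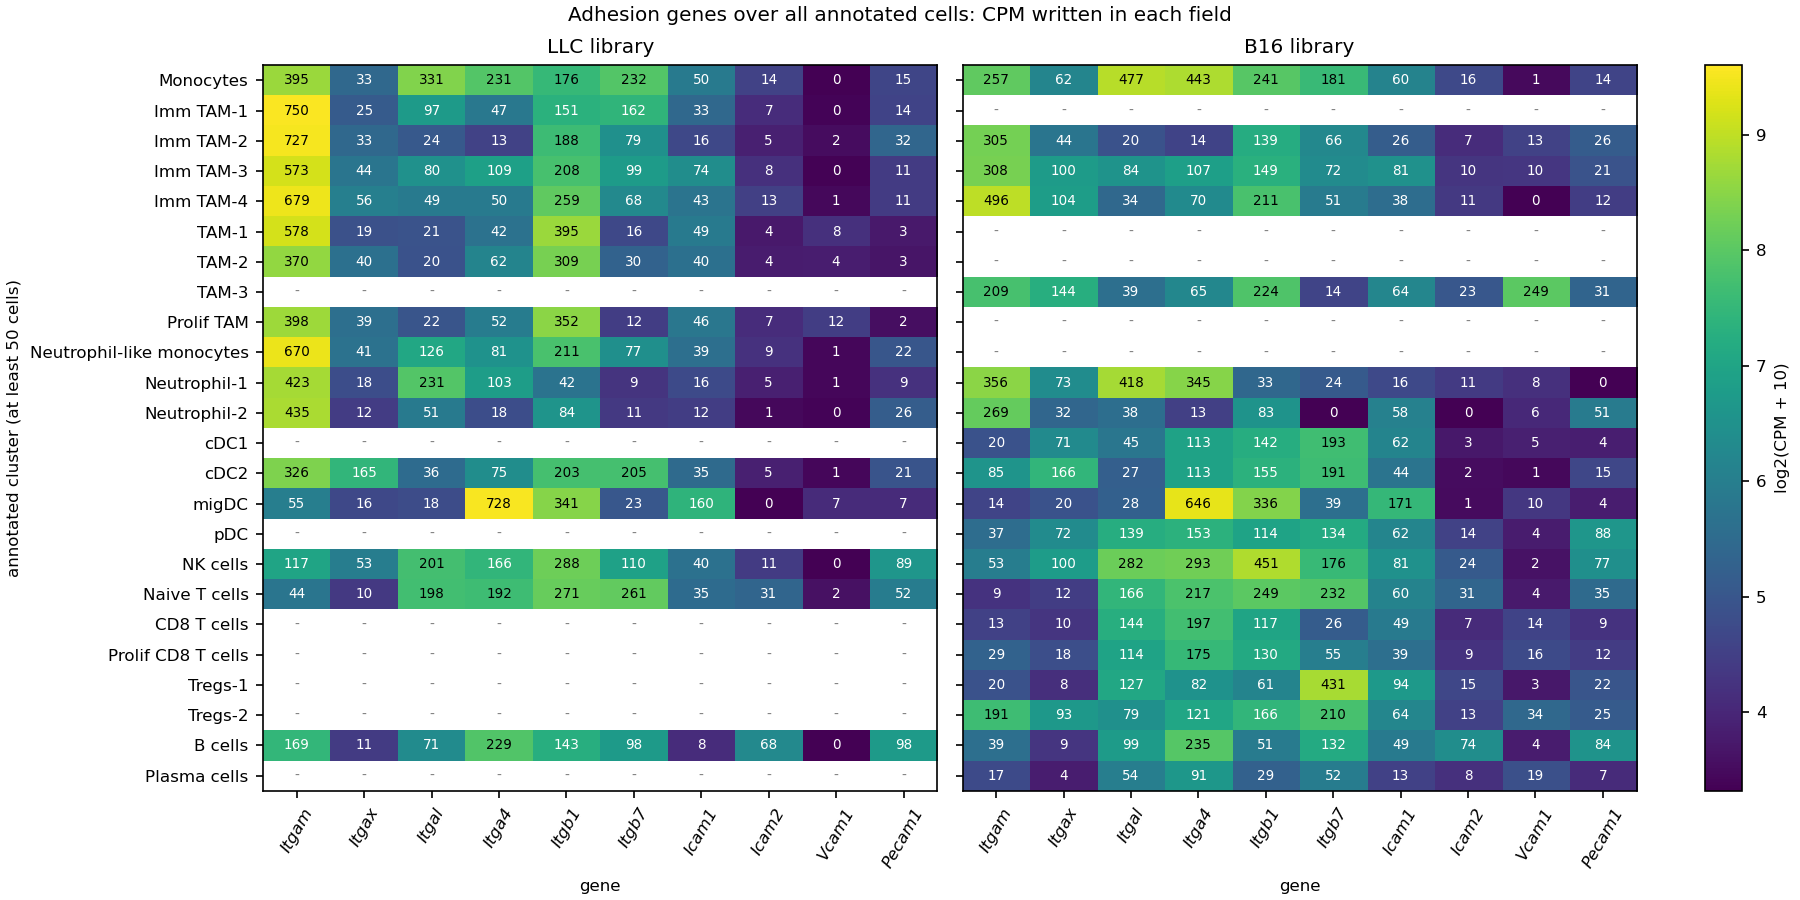
RNA level of the 10 genes (columns) in annotated clusters of at least 50 cells (vertical axis) in the LLC and B16 libraries; the number in each field is CPM, the colour is log2(CPM + 10), and a dash marks a cluster below 50 cells. Itga4 is highest in migDC, Itgax in cDC2 and Icam2 in B cells in both libraries, while the Vcam1 level of 249 is found in TAM-3 of B16.

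Within the 11 clusters held by at least 50 cells in both libraries, 27 of 93 gene-cluster pairs (29.0%) were higher in B16 and 10 (10.8%) lower, against 13.9% and 14.9% of all genes. NK cells held 6 higher pairs of 9, Naive T cells 1 of 9 and B cells 1 of 8, beside 15.5%, 11.1% and 17.6% of all genes. Itgam made up 9 of the 10 lower pairs, 2 of them in Naive T cells and B cells, where its levels are not read as expression. In the other 9 clusters its ratio was below 1 throughout, from 0.262 in cDC2 to 0.841 in Neutrophil-1. Itgax was above 1 in all 10 clusters measured, from 1.01 in cDC2 to 4.09 (2.26 to 7.47) in Neutrophil-1. These include Naive T cells, the lowest LLC cluster for Itgax at 10.4, where the source of its UMIs was likewise not tested. Neutrophil-1 also had the widest Itga4 ratio, 3.36 (2.61 to 4.31), and NK cells had a ratio of 1.77 for Itga4, 1.56 for Itgb1 and 2.003 for Icam1. The B cell ratio of 6.47 for Icam1 rests on 36 and 2 UMIs, with an interval of 1.67 to 55.5.

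Other genes of the adhesion pathway were counted from a list of 73 genes, of which 54 were in the monocyte and macrophage table. Of the 44 measured in B16 against the LLC library, 5 (11.4%) were higher and 13 (29.5%) lower, beside 11.9% and 11.8% of all genes, and the median log2 ratio was −0.30, beside −0.03 for all genes. Against the CITE-seq LLC library 3 of 44 (6.82%) were higher and 13 (29.5%) lower, beside 11% and 9.93% of all genes, with a median of −0.12 beside −0.04 for all genes. Between the LLC libraries 3 of 46 (6.52%) were higher and 2 (4.35%) lower, beside 3.03% and 2.81%, with a median of −0.03 beside 0.02. These counts pool all subsets. Within Monocytes the median log2 ratio of the list was −0.02 against the LLC library and 0.07 against the CITE-seq LLC library. There 8 of 32 (25%) and 7 of 32 (21.9%) were lower, beside 7.52% and 7.13% of all genes. Of the same 32, 4 and 5 were higher, beside 10.3% of all genes against either. In Mono/TAM IFN the list medians were −0.37 and −0.36, beside −0.19 and −0.22 for all genes. In Mono/TAM Hypoxic they were −0.26 and −0.17, beside −0.07 and −0.06. In Immature TAM-1 the list median against the CITE-seq LLC library was −0.08, beside 0.02.

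By role, and over all subsets pooled, the lower genes in B16 included ligands. Of 4 measured matrix ligands 3 were lower and 0 higher against either LLC library, and of 7 vascular and junctional ligands 4 were lower and 0 higher. Within Monocytes 3 of 4 matrix ligands were again lower and 0 higher against either library. There 7.52% and 7.13% of all genes were lower against LLC and CITE-seq LLC. In Mono/TAM IFN 2 of 4 and 1 of 4 were lower and 0 higher, beside 22.8% and 26% of all genes lower. In Mono/TAM Hypoxic 2 of 4 were lower and 1 higher against either, beside 18.5% and 15.3% of all genes lower. In Immature TAM-1 3 of 4 were lower and 0 higher against CITE-seq LLC. The vascular and junctional ligands varied by subset: in Monocytes 2 of 4 and 1 of 4 were lower against LLC and CITE-seq LLC. In Immature TAM-1 1 of 5 was higher and 1 lower against CITE-seq LLC, with a median log2 ratio of 0.14. That is near the share of all genes in Immature TAM-1, 16.7% higher and 13.5% lower. Of 10 further integrin subunits 3 were higher and 2 lower against the LLC library and 2 and 2 against the CITE-seq LLC library. Of 19 genes of integrin activation (talins, kindlins, Rap1 and their partners) 2 were higher and 3 lower against the LLC library, and 1 and 3 against the CITE-seq LLC library. Of 4 genes of the selectin system 0 were higher and 1 lower against either. The 3 lowest ratios against the LLC library were Jam2, a junctional adhesion molecule, at 0.0572 on 3 and 131 UMIs; Fn1, fibronectin, at 0.0962 with levels of 241 and 2502; and Thbs1, thrombospondin-1, at 0.140 with levels of 285 and 2029. The 3 highest were Itgae at 5.71 on 16 and 7 UMIs, Itgb3 at 2.40 and Itga8 at 1.61. Against the CITE-seq LLC library the lowest were Jam2 at 0.0467, Fn1 at 0.123 and Cdh5 at 0.307, and the highest Itga8 at 1.84, Itgae at 1.67 and Tln2 at 1.53. Cdh5 rests on 8 and 60 UMIs. Itgae rests on 16 and 22 and Tln2 on 16 and 24, and both of their intervals span 1. Between the LLC libraries the lowest were Thbs1 at 0.390 and Itga1 at 0.488, and the highest Itgae at 3.41, Selp at 1.78 and Itgb3 at 1.69. These 3 highest rest on 22 and 7, 23 and 14, and 39 and 25 UMIs, and the intervals of Selp and Itgb3 span 1. Itgb2, the beta subunit that Itgal, Itgam and Itgax need, had pooled levels of 316 in B16, 454 in the LLC library and 436 in the CITE-seq LLC library.

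The genes whose pattern over the 24 groups was most like each member, by Pearson coefficient among 4122 genes, were the following. For Itgal they were Nxpe4 at 0.958 and Ptprc, which encodes CD45, at 0.956. For Itga4 they were Smpdl3b at 0.955 and Vrk1 at 0.952, and for Itgb7 Gsr at 0.953 and Arhgap26 at 0.947. Itgam was most like Slc25a24 at 0.947 and Klf7 at 0.918, Itgax most like AU020206 at 0.876 and Bcl2a1d at 0.850, and Itgb1 most like Pdgfb at 0.915 and Tmem141 at 0.906. Among the ligands, Icam1 was most like Atp13a1 at 0.926 and Wars at 0.898, Vcam1 was close to Cadm1 at 0.948, Icam2 was most like Cd300e at 0.756 and Clec4a1 at 0.714, and Pecam1 most like Slbp and Sec61g at 0.756 and 0.754. The groups share libraries and depth, so these coefficients are descriptions.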

How the data were processed

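Single-cell RNA was measured in 3 libraries and antibody tags in the CITE-seq LLC library. Cell Ranger and the mm10 build are named in the submitters' processing notes. The version, the filters on cells and genes and the strand setting were not given in the sources used here. What the authors deposited are tables of raw UMI counts, for genes and for 172 tags by cell, and their own cluster annotation, which was used unchanged. Ratios do not include genes at 0 in a whole library.

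UMIs were summed per cluster and library and divided by the cluster's total (CPM, with exact Poisson intervals), and ratios have exact conditional binomial intervals. With 1 library a group no test was made, and a gene was called at 1.5-fold with at least 20 UMIs over both sides. Values of 0 were bounded at 3 counts. The intervals and the ratio rule were tested on simulated data. Depth is given in the report.

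The members and lists were chosen with earlier results of these data known. All members are named; other genes are the highest and lowest 3 of the pathway list by ratio, and the 2 genes most similar to each member by Pearson coefficient of log2(CPM + 10) among genes at 50 or more in at least 1 group. Some genes that these rules name are not reported here. Marker lists were monocyte, non-classical monocyte, macrophage, endothelial and platelet.

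Alternatives were median-of-ratios scaling, the mean of each cell's own value, equal weight to shared subsets, each subset alone, the joint table, no UMI minimum, thinning to 2000 UMIs per cell, the B16 annotation, removal of the 6% of cells with the highest doublet score in each library (simulated doublets, 2000 variable genes, 30 components, 50 neighbours) and other scales of the tags. Doublets were otherwise kept. The computations without TAM-1 cells, without Monocytes, without cells of more than 5000 tag UMIs and without cells with a CD41 UMI were chosen after seeing the data. Positions are from GENCODE vM21 and promoters from RefSeq on GRCm38.p6. Python 3.11.15, numpy 2.4.6, scipy 1.17.1, pandas 2.3.3, scikit-learn 1.9.0 and matplotlib 3.10.9 were used.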

Additional observations from a re-analysis of the deposited data

Results flagged for a closer look

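Itga4, the VLA-4 alpha subunit, had a ratio of B16 over the CITE-seq LLC library of 1.69 in Monocytes and 0.464 in Mono/TAM Hypoxic, so the same comparison pointed in opposite directions in 2 subsets. Itgal, the LFA-1 alpha subunit, did likewise, at 1.505 in Monocytes and 0.524 in Mono/TAM Hypoxic. Itgb1, in the joint table of B16 over LLC, was at 1.56 in NK cells and 0.360 in B cells. The B cell ratio for Itgb1 rests on 102 LLC and 220 B16 cells. That cluster also carried macrophage marker RNA, whose part in the Itgb1 ratio was not tested. In each case both ratios passed 1.5-fold and their counting intervals lay on opposite sides of 1. With 1 library a group, the difference between the ratios was not tested.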

How the results depend on the processing

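Results for B16 over the LLC library moved most when subsets were weighted equally or taken alone. Of the members, 5 were higher as reported; with equal weight 1 was, and in single subsets 1 to 2 were. The count of lower members, 2 as reported, was 1 by the mean of each cell's own value, 1 with equal weight, 1 after thinning and 0 to 4 in single subsets. In these single subsets 8.09% to 12.6% of all genes were higher and 7.52% to 22.8% lower. Against the CITE-seq LLC library the 4 higher members became 0 with equal weight and 0 to 2 in single subsets. The 1 lower member became 2 without TAM-1 cells, 2 without Monocytes and up to 5 in single subsets. The shares of all genes in the single subsets were 8.52% to 16.7% higher and 7.13% to 26% lower. Among members past 1.5-fold as reported, direction turned for Icam2 at 0.916 (equal weight) and Itgb7 at 1.13 (without TAM-1 cells), and in the lowest single subset for Itga4 at 0.749, Icam2 at 0.630 and Pecam1 at 0.701. Against the CITE-seq LLC library it turned with equal weight for Vcam1 at 0.765 and Pecam1 at 0.817, and in the lowest single subset for Itga4 at 0.464, Icam2 at 0.644, Vcam1 at 0.396 and Pecam1 at 0.594. Members under 1.5-fold also turned in a single subset, among them Itgax at 0.663, Icam1 at 0.430 and Itgal at 0.524. Beside the choice of cells, the cause was not tested. Vcam1 had no equal-weight value against the LLC library, where its shared subsets were at 0.

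Of the 10 tags, 5 were highest in Monocytes; by mean tag UMIs per cell 1 was, over the isotype controls 1 and by centred log-ratio 2. Tags with a rank coefficient above 0.5 with their RNA fell from 8 to 4 over the isotype controls. That scale includes Immature TAM-3, whose isotype sum was 7.82 per 1000 tag UMIs, or 1.26 without its 4 cells of more than 5000. The part of these cells in the fall was not tested. Of 429 values under alternatives, 241 stayed within the tolerance, 177 moved beyond it and 11 turned direction. No paired analysis was possible because each group has 1 library. Depth limits Icam2 and Pecam1 and, in LLC cells, Vcam1.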
